A study of Clytia hemisphaerica and Astroides calycularis and Pocillopora acuta with 17 samples.

Results

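A group of 1370 cells was examined in planula larvae of the scleractinian coral Astroides calycularis, taken out of 19933 Astroides cells that passed quality filters and 50609 cell barcodes in the whole single-cell series. Members were chosen by the transcripts of the cells themselves. A cell belonged when at least 1 UMI (unique molecular identifier, the tag that counts a captured mRNA molecule once) was present for 2 or more of 10 marker genes, among them an ortholog of DKK3 and a haem peroxidase, and for at most 1 of 6 apical genes that mark the neighbouring apical cell type. These cells are called marker-positive cells here, and the 198 cells with 2 or more apical genes are called apical cells. All other cells means the 18563 remaining kept cells, apical cells included. Because the 16 genes chose the cells, their values are given as a description without a test. The markers DKK3, STRG.25668, STRG.22094 and STRG.10182 are themselves on the study's list of genes of apical cells. Higher levels of other genes on that list can therefore follow from the rule.

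The Astroides material consisted of untreated, settlement-competent larvae released by wild colonies, pooled, dissociated mechanically and then fixed in ACME, with no genotype, strain or age in the labels. One preparation was loaded without sorting (unsorted sample). The other was sorted by flow cytometry with the DNA dye DRAQ5 to discard debris and doublets (sorted sample), and its 3 captures were counted as run 1, which pools 2 captures, and run 2. The sorted and unsorted preparations were therefore 2 biological samples and 3 count matrices, and differences between them cannot be told apart from the effect of sorting. Larvae of a second coral, Pocillopora acuta, dissociated and fixed in the same way, came from the aquarium colonies C3 and C6, which share a genotype, with 1 and 2 captures and without sorting, and were used for a comparison in samples that the rule had not drawn on.

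Planulae swim with the aboral pole forward, and this pole carries a sensory apical organ and later attaches to the substrate. Its identity depends on low Wnt signalling: Wnt ligands act from the oral pole, and secreted proteins that bind Wnt ligands or their receptors, such as the secreted frizzled-related proteins (SFRP), limit their reach. DKK3 is a secreted glycoprotein of the Dickkopf family, in which other members bind the Wnt co-receptor. FoxQ2 forkhead factors and Six3/6 homeodomain factors are aboral or anterior regulators in cnidarians and in bilaterian larvae.

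Marker-positive cells made up a like share of each matrix. They were 240 cells or 6.20% of kept cells in the unsorted sample (95% exact binomial interval 5.46 to 7.01%), 485 cells or 7.26% in sorted run 1 (6.65 to 7.91%) and 645 cells or 6.87% in sorted run 2 (6.37 to 7.41%). All intervals cover counting error only. The matrices held 4627296, 9144803 and 13415820 UMIs in kept cells, and no barcode was shared between matrices among the marker-positive cells. The cells were deeper than the rest, with a median of 1629 UMIs per cell against 928 in all other cells, and a rule that asks for several genes is met more often by deep cells. When every cell with enough UMIs was thinned to 500 UMIs (16390 cells, 3543 shallower ones left out), the share was 2.81%, against 7.71% of the same cells before thinning. The part of depth in membership beyond this value was not tested.

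The label DKK3-positive held for a minority of the cells. A DKK3 (STRG.12234) UMI was present in 506 of the 1370 cells, or 36.9% (34.4 to 39.6%), which is 40.4% in the unsorted sample, 34% in run 1 and 37.8% in run 2. DKK3 was found in 1.37% of all other cells, in 48.5% of apical cells and in 0.25% of 803 cells with gastroderm markers, a type used here as background for free RNA, whose median depth was 1112 UMIs. Marker-positive and apical cells were left out of this gastroderm group. Its low shares of the markers are therefore in part set by the rule. Summed over cells and scaled to UMIs per 1000000 (CPM), the level of DKK3 was 267, 228 and 251 CPM in the marker-positive cells of the unsorted sample, run 1 and run 2, against 21.9, 12.7 and 14.3 in all other cells. A larger part of the cells was held by a spondin-like glycoprotein and by the peroxidase, so that the group is named by its markers and not by DKK3 alone.

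The spondin-like glycoprotein (STRG.25668), a secreted protein of a family found in extracellular matrix, had a UMI in 62.1%, 77.5% and 73.6% of marker-positive cells in the 3 matrices. It was present in 6.86% of other cells, in 68.2% of apical cells and in 1.49% of gastroderm-marker cells. The haem peroxidase STRG.6135, a member of a family of enzymes that oxidise substrates with hydrogen peroxide, had a UMI in 52.5%, 54% and 54.4% of marker-positive cells. Unlike DKK3 and the spondin-like gene, the peroxidase was found in 7.07% of apical cells, close to its 5.52% in other cells, against 1.25% of gastroderm-marker cells. STRG.10182 and STRG.4931, for which the annotation gives no name, were detected in 25.6% and 27.3% of marker-positive cells. The remaining markers were sparse, each in 1.82 to 7.01% of the cells, and include an LHFPL-like tetraspan membrane protein (STRG.36707) at 3.43%.

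**Figure D1:**
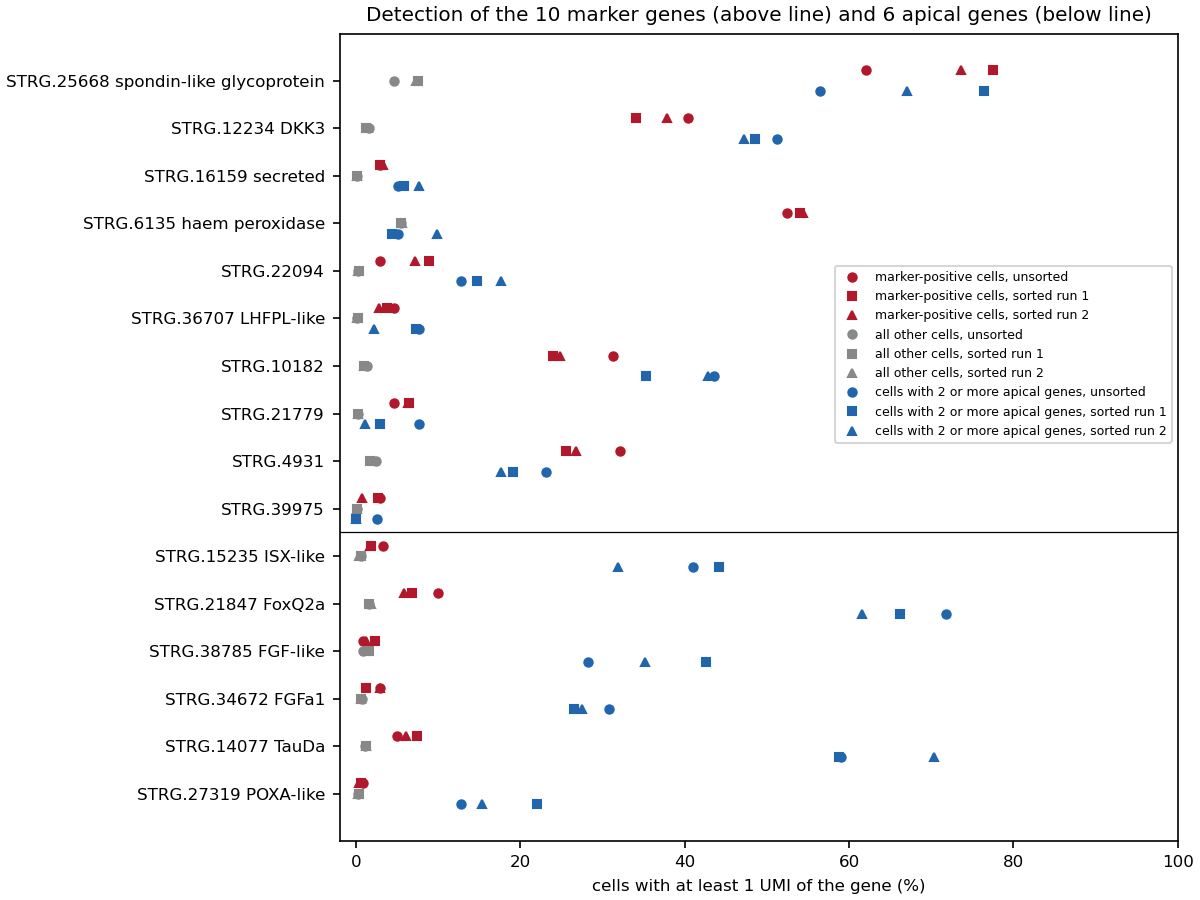
Share of cells with at least 1 UMI of each of the 10 marker genes (above the line) and 6 apical genes (below it), in percent on the horizontal axis, with 1 point per matrix for marker-positive cells (red), all other cells (grey) and apical cells (blue). The spondin-like gene and DKK3 are found in both marker-positive and apical cells, while the peroxidase STRG.6135 lies at 52.5 to 54.4% in marker-positive cells and at 7.07% over all apical cells.

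Most members sat at the edge of the rule. Of the cells with at most 1 apical gene, 968 had 2 markers, 303 had 3, 81 had 4, and 18 had 5 to 7, while 2876 cells just outside the rule had 1 marker. Summed over the 10 markers, the cells with 1 marker held 1225 CPM and the cells with 2 held 2210, at median depths of 1265 and 1494 UMIs. On the apical side, 1100 members (80.3%) had none of the 6 apical genes and 270 (19.7%) had 1, and 90 cells were excluded with 2 or more markers and exactly 2 apical genes. The groups thus adjoin each other: 142 of the 198 apical cells also had 2 or more of the 10 markers.

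The most frequent pairs joined the spondin-like gene with the peroxidase or with DKK3. The spondin-like gene and the peroxidase were found together in 500 members (36.5%), in 319 of them with no other marker. The spondin-like gene and DKK3 were found together in 301 members (22%), and DKK3 and the peroxidase in 208 (15.2%). A UMI of DKK3 or of the spondin-like gene was present in 88.0% of members, and 42 members (3.07%) had neither of them nor the peroxidase.

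The markers also accompanied each other when the gene examined was kept out of the choice. The 10 markers were chosen with earlier results of these cells known, so this is a description and not independent support. Among cells with 2 or more of the other 9 markers and at most 1 apical gene, 22.4% of 1114 cells had a DKK3 UMI. Of the remaining cells with at most 1 apical gene, 2.23% had one. At 500 UMIs per cell the shares were 15.4% and 1.61%. At equal depth and for levels, the remaining cells include apical cells. The level of DKK3 was 4.09, 5.97 and 5.63 times as high in the chosen cells of the unsorted sample, run 1 and run 2. For the peroxidase the same measure gave 26.4% of 857 cells against 8.07%, which was 10.4% against 5.19% at equal depth, a smaller contrast than for DKK3. The spondin-like gene gave 47.7% of 708 cells against 9.46%, and 34.6% against 5.94% at equal depth.

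Outside the 16 rule genes, marker-positive cells were set apart by a small number of genes. A gene was called higher when its CPM were at least 4 times those of all other cells in both the unsorted and the sorted sample, with at least 10 UMIs in the marker-positive cells of each. Of 3797 genes that could be judged, 19 were called (0.5%), and 8 of these are rule genes. Among the other 11, 8 are on the list of genes that bulk RNA-seq of bisected planulae placed at the aboral end, a list that holds 65 of the judged genes outside the rule. The markers DKK3, STRG.25668, STRG.16159, STRG.6135, STRG.22094, STRG.36707 and STRG.10182 are on this bulk list too. Higher levels of other genes on it can therefore follow from the rule. These cells carried the rule, so a fold is given in place of a test, with exact intervals for counting error. Without run 1 the count was 12, without the unsorted sample 60, and without cells holding 2 markers of another class 34.

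Among the annotated genes with high ratios were secreted and matrix proteins, although the list of matrix genes as a whole was lower, as given further on. SPON1 (STRG.4000), the coral ortholog of spondin-1, an extracellular matrix protein known from the vertebrate floor plate, measured 76.7, 97.5 and 54 CPM in marker-positive cells of the unsorted sample, run 1 and run 2. Other cells measured 16.8, 14.3 and 11.5, so that the level was 4.57 times as high in the unsorted sample (3.01 to 6.84) and 5.71 times in the sorted one (4.67 to 6.96). The level was higher in each matrix, of which 2 are runs of 1 preparation. A protein with nidogen-like and EGF domains (STRG.33254), domains typical of basement membrane and adhesion proteins, measured 26.9, 44.1 and 39.2 against 6.58, 9.18 and 10.2 CPM, or 4.08 and 4.22 times in the unsorted and sorted samples. STRG.19993, with von Willebrand A and thrombospondin domains, was 3.2 and 3.41 times as high and so below the call. A DOMON-domain gene (STRG.27417), whose domain occurs in extracellular redox proteins, was 3.54 and 5.85 times as high, but a single cell held 21.4% of its UMIs in the sorted marker-positive cells.

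SFRP (STRG.18883), the Wnt antagonist, was also higher. It measured 332, 400 and 351 CPM in marker-positive cells and 99.4, 99.9 and 83.9 in other cells, which is 3.34 times in the unsorted and 4.11 times in the sorted sample. SFRP was higher in each matrix, although its unsorted fold missed 4. Of the 13 genes outside the rule in a list of Wnt ligands, receptors and antagonists, 4 had at least 50 UMIs over all kept cells in each sample, and of these SFRP was the 1 at least 2-fold higher in both. The most counted Wnt ligand in the marker-positive cells (STRG.11669) measured 46.0, 38.0 and 23.7 against 62.6, 74.3 and 69.8 CPM.

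Transcription factors of the aboral list were higher as a group than in all other cells, and most were lower than in apical cells. Markers on the bulk list helped to choose the cells, so higher levels can follow from the rule. Of 16 such factors outside the rule, 11 had at least 50 UMIs in each sample, with a median log2 ratio of 1.25 in the unsorted and 1.53 in the sorted sample against medians of -0.14 and -0.04 over 5894 genes. In both samples 7 of the 11 were at least 2-fold higher and 1 was at least 2-fold lower, while 1.48% of all genes were at least 2-fold higher and 11.2% lower. Set against apical cells, 10 of the 11 were lower in both samples. Their medians were -0.90 and -0.87, against -0.39 and -0.13 over all genes. The levels that follow are again set against all other cells. The FoxQ2 gene STRG.21723 measured 257, 221 and 212 CPM against 60.2, 46.4 and 56.7, or 4.27 and 4.11 times. The forkhead gene with the neighbouring identifier, STRG.21722, measured 267, 180 and 184.3 against 55.0, 39.0 and 45.9, or 4.84 and 4.23 times. Whether reads could be shared between these adjacent genes was not tested.

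Other factors were higher by less than the call. A FoxQ2 gene of another group, STRG.27038, was 3.88 and 2.89 times as high, the HMG-box gene STRG.33347 was 2.99 and 3.76 times, and a forkhead gene of no named class, STRG.6768, was 2.65 and 3.35 times. RFX6 (STRG.33567), a winged-helix factor known in vertebrates for endocrine cell formation in the pancreas and gut, measured 36.4, 82.1 and 74.8 against 15.3, 23.4 and 20.2 CPM. Six3/6 (STRG.44164) was 1.49 and 1.38 times as high, and the homeodomain gene STRG.4567 was 0.80 and 0.82 times, so that not every aboral factor was higher.

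**Figure D2:**
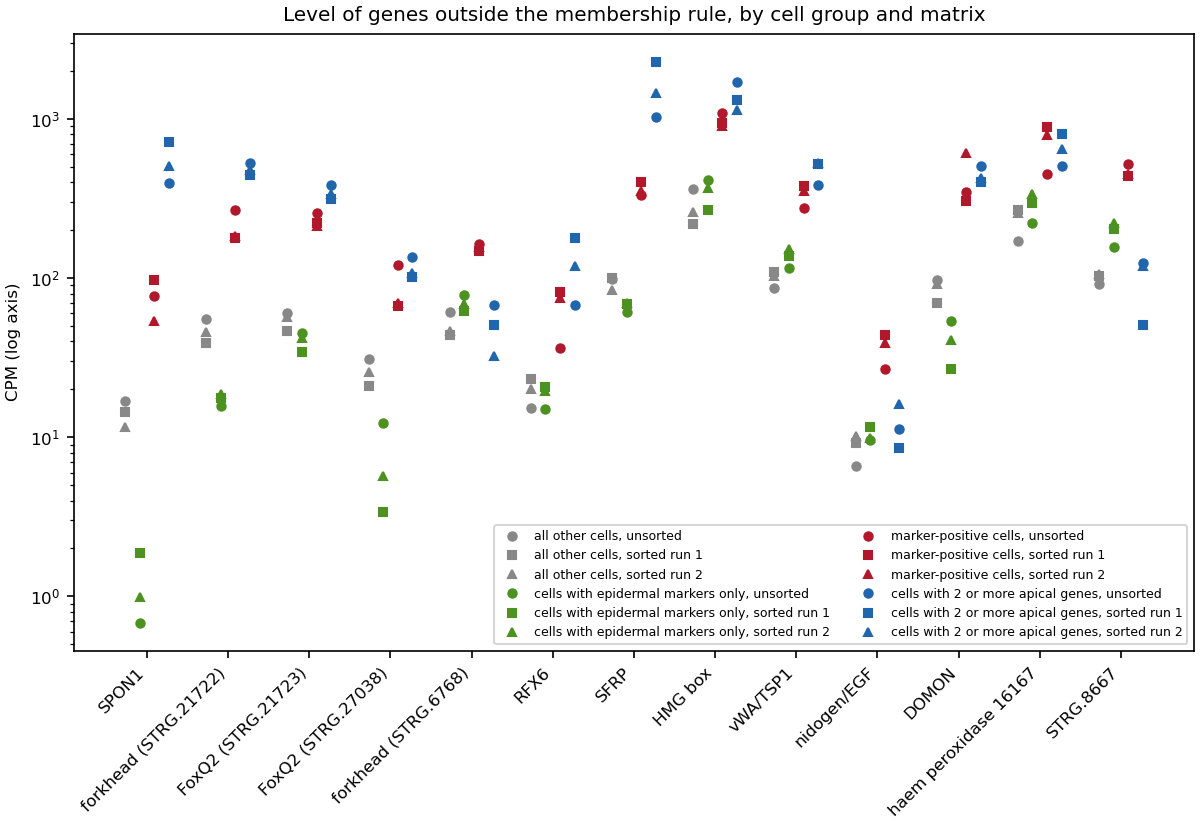
Level of 13 genes outside the rule, in CPM on a logarithmic axis, with 1 point per matrix for all other cells (grey), cells with epidermal markers only (green), marker-positive cells (red) and apical cells (blue). SPON1 and SFRP form steps from other cells through marker-positive to apical cells, and STRG.8667 and the nidogen-like gene are highest in marker-positive cells. The apical points of the nidogen-like gene rest on 1, 1 and 3 UMIs.

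Most of the called genes have no annotation. The unnamed gene STRG.8667 measured 522, 440 and 451 CPM in marker-positive cells, 91.6, 104 and 107 in other cells and 124, 51.0 and 119 in apical cells. It was thus 5.70 and 4.24 times as high as in other cells and 4.20 and 4.83 times as high as in apical cells in the unsorted and sorted samples, above in every matrix. Cells with epidermal markers only measured 157, 204 and 222 CPM, between all other cells and marker-positive cells. STRG.10431 was 4.39 and 5.78 times as high as in other cells, and STRG.18692, of the Frag1/DRAM/Sfk1 membrane protein family, 5.59 and 4.23 times. In apical cells STRG.10431 was 5.39 and 7.65 times as high as in marker-positive cells, and STRG.18692 1.07 and 3.48 times. STRG.10431 is also on the study's list for apical cells. Of the 20 genes outside the rule with the highest ratios, 15 are on the aboral list and 9 carry an annotation. DKK3, the spondin-like gene and the peroxidase are on the aboral list too, so the 15 can follow from the rule.

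The aboral list held genes that were higher and genes that were lower. Of its 211 genes outside the rule, 88 had at least 50 UMIs over all kept cells in each sample, and their median log2 ratio was -0.26 in the unsorted and -0.49 in the sorted sample. The direction of this median depends on the floor: over both samples it was -0.32, and 0.70 with a floor of 1 UMI, which adds 115 genes. The list was split: 31 of the 88 (35.2%) were at least 2-fold higher in both samples and 22 (25%) at least 2-fold lower. The oral list had 148 genes, 50 of them measured, with medians of -1.22 and -1.50, of which 0 were at least 2-fold higher and 22 (44%) at least 2-fold lower. Genes the study assigned to apical cells, a list drawn from these same cells and so not independent of them, had 12 measured members outside the rule with medians of 1.69 and 1.95. SPON1, SFRP and STRG.21723 are among them, and DKK3 and the spondin-like gene of the rule are on the same list.

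Smaller lists held few measured genes. The lists for gland mucous cells, neurosecretory cells 1 and GLWamide neurons, also drawn by the study from these cells, had medians of -0.93 and -0.87 over 20 genes, -0.98 and -0.94 over 10 genes and -0.97 and -2.3 over 6 genes. A second neurosecretory list, with 3 measured genes, had medians of -1.37 and -1.96. Matrix genes had medians of -1.37 and -1.99 over 11 genes, 7 of them at least 2-fold lower and 2 higher. Of the aboral receptors of the GPCR class 4 were measured, with 2 at least 2-fold higher and 1 lower in both samples. Of bone morphogenetic protein ligands, proteases and antagonists 2 were measured and neither differed 2-fold in both, and of 3 FGF genes outside the rule the 1 measured, FGF22-like STRG.11113, was at 0, 5.13 and 2.22 CPM against 14.1, 17.7 and 16.7.

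Genes called at least 4 times lower numbered 114 of 2395 that could be judged (4.76%), a gene entering when at least 20 UMIs were expected at the level of other cells. Annotation was present for 10 of the 114. Ncol3 (STRG.26600), a minicollagen of the stinging capsule and here a cnidocyte marker, had 0 UMIs in the unsorted marker-positive cells where 356 were expected, at least 119-fold lower with 0 set to 3 UMIs, and 45 in the sorted ones where 2921 were expected, 64.9-fold lower. The share of cells with a UMI of Ncol3 was 2.99% in marker-positive and 2.38% in other cells, so the fold lies in UMIs per cell and not in the share of cells. The collagen STRG.8480 had 1 UMI where 95.1 were expected in the unsorted sample, a ratio of 0.0105 (0.0003 to 0.0588), and 5 where 683 were expected in the sorted one. The other cells include every remaining cell type, cnidocytes among them. Without the unsorted sample the count was 456, and without cells holding 2 markers of another class it was 61.

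Compared with apical cells, marker-positive cells had lower levels of the measured genes on the study's apical list. By the same 4-fold rule, 10 of 3797 genes (0.263%) were higher in marker-positive cells and 15 of 1031 (1.45%) were higher in apical cells, 5 of the latter being rule genes. With TMM scaling, which moves every log2 ratio between these groups by 0.56 in the unsorted and 0.33 in the sorted sample, the split was 27 against 12, so that 69.2% of calls were higher in marker-positive cells, against 40% without it. Without the unsorted sample the counts were 152 and 96, and without run 2 the first was 20. The apical group is small, with 39, 68 and 91 cells in the unsorted sample, run 1 and run 2.

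Several enzymes and factors were higher in apical cells. A cysteine-rich secretory protein (STRG.8953) was 21.6 and 38.4 times as high in apical cells in the unsorted and sorted samples, a multicopper oxidase (STRG.40383) 27.5 and 17.1 times, and 6-pyruvoyl tetrahydropterin synthase (STRG.21126), which makes the precursor of the cofactor tetrahydrobiopterin, 10.6 and 36.3 times. The homeobox gene NKX3 (STRG.11494) was 15.2 and 10.2 times as high. SPON1 was 5.16 and 8.14 times as high in apical cells, at 396, 714 and 507 CPM, and SFRP reached 1029, 2287 and 1447. All 12 measured genes of the study's apical list were lower in marker-positive than in apical cells in both samples, with medians of -1.86 and -2.20 on the log2 scale. With TMM scaling 11 of the 12 were, since STRG.30319 turned to 0.052 in the unsorted sample and STRG.21723 came to -0.024. Over all 5894 genes and without TMM, 2416 were lower in both samples, with medians of -0.39 and -0.13. The study drew its apical list from these same cells. The rule allows marker-positive cells at most 1 apical gene, and apical cells need 2 or more. Lower levels of listed genes can therefore follow from the rule.

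In the other direction, the peroxidase STRG.6135 that helped to choose the cells was 16 and 8.52 times as high in marker-positive cells. Outside the rule, the unnamed STRG.30316 was 6.54 and 5.25 times as high, with a UMI in 66.0% of marker-positive, 43.2% of other and 25.3% of apical cells. Cells with epidermal markers only had it in 80.7%, at 1864, 2401 and 2434 CPM against 1847, 1844 and 2042 in marker-positive cells. STRG.1346 was 12.8 and 6.39 times as high as in apical cells, and it too was no higher than in the epidermal-marker cells, at 435, 299 and 366 CPM against 447, 411 and 395. The highest ratio, that of STRG.37611, came from 20 marker-positive cells, with 1 cell holding 53.8% of the unsorted and 1 cell 67.0% of the sorted UMIs, and STRG.42770 came from 8 cells. The nidogen-like gene stood at 11.3, 8.50 and 16.2 CPM in apical cells, below the 26.9 to 44.1 of marker-positive cells. These apical values rest on 1, 1 and 3 UMIs. The interval of the ratio to apical cells was 0.36 to 100 in the unsorted and 1.18 to 11.7 in the sorted sample.

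Levels changed by steps with the number of markers detected. In cells with 0, 1, 2 and 3 or more markers and in apical cells, SPON1 measured 2.20, 14.5, 67.0, 84.9 and 544 CPM. SFRP measured 45, 154, 333, 424 and 1605, and RFX6 14.7, 34.7, 69.6, 71.4 and 125. These genes were highest in apical cells. STRG.8667 measured 64.3, 257, 406, 566 and 99.7 and the nidogen-like gene 6.33, 20.5, 37.7, 40.4 and 12.8, so that both were higher in every marker-bearing stratum with 2 or more markers than in apical cells. The apical value of the nidogen-like gene rests on 1, 1 and 3 UMIs in the matrices. Sox3 (STRG.11680), an epidermal marker, lay between 315 and 404 in these cells.

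**Figure D3:**
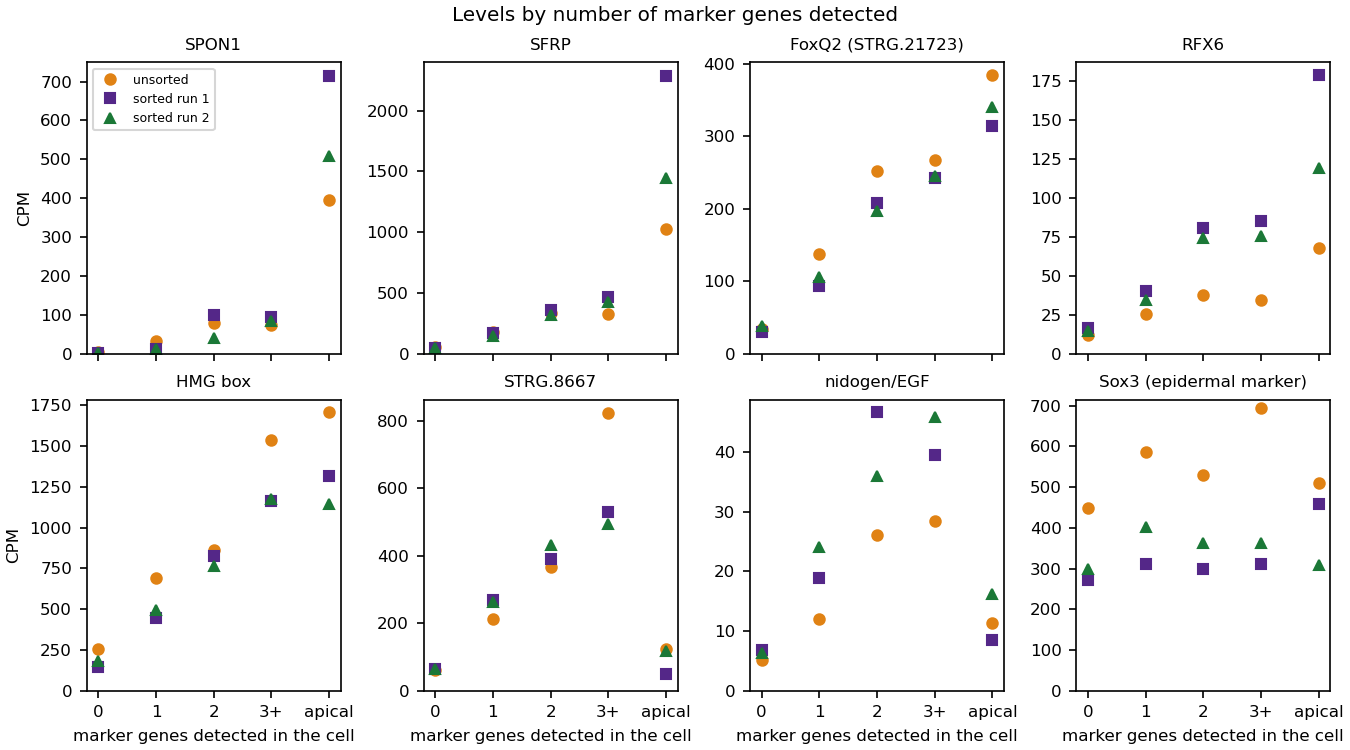
Level of 8 genes (CPM, linear axis, 1 point per matrix) in cells with 0, 1, 2 and 3 or more of the 10 marker genes and in apical cells. SPON1 and SFRP reach 544 and 1605 over all apical cells, whereas STRG.8667 and the nidogen-like gene peak in cells with 2 or more markers and Sox3 lies between 315 and 404 when the matrices are summed. The apical points of the nidogen-like gene rest on 1, 1 and 3 UMIs.

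Epidermal markers were common in marker-positive cells. Of 3 epidermal markers, 2 or more were found in 54.6%, 38.1% and 44.7% of marker-positive cells (44.1% over all), in 27.9% of other cells and in 16.2% of apical cells. At 500 UMIs per cell the shares were 20.5%, 9.62% and 9.78% in marker-positive cells of the unsorted sample, run 1 and run 2, 15.3%, 12.3% and 12% in other cells and 1.10% over all apical cells. At equal depth the share was thus higher than in other cells in the unsorted sample and lower in both sorted runs. Gastroderm markers were found in 2.48% of marker-positive against 5.02% of other cells, neural markers in 2.70% against 6.08% and cnidocyte markers in 0.073% against 0.447%. Gland mucous markers, at 2.41% against 1.71%, and those of specialized epidermis, at 1.39% against 1.22%, were not less frequent in the deeper marker-positive cells. No class reached 2 markers in 52.8% of marker-positive cells, and 2 or more classes did in 5.40%, against 2.78% of other cells. No doublet caller was run, and the part of doublets was not tested.

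Set against 4725 cells with epidermal markers only, more of the aboral list was higher. Marker-positive and apical cells were left out of this reference, whereas all other cells include the apical cells. The larger contrast can therefore follow in part from the choice of cells. The same 88 genes of the aboral list had median log2 ratios of 1.27 and 1.35, with 48 at least 2-fold higher in both samples and 0 at least 2-fold lower, while all genes had medians of 0.06 and 0.10 with 5.11% at least 2-fold higher. By the 4-fold rule 48 of 3797 genes were higher than in the epidermal-marker cells, 11 of them on the rule and 22 others on the aboral list, and 2 of 2126 were lower. This reference was chosen after the data had been seen.

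The haem peroxidase divided the marker-positive cells. Of the 1370, 739 had a UMI of STRG.6135 and 631 had none, with 126 and 114 cells in the unsorted sample, 262 and 223 in run 1 and 351 and 294 in run 2, at median depths of 1926 and 1245 UMIs. The split was chosen after the values had been seen and carries no test, and other markers are higher without the peroxidase by the construction of the rule. SPON1 measured 16.1, 14.7 and 11 CPM in cells with the peroxidase and 166, 237 and 121 in cells without it. The first values are close to the 11.5 to 16.8 of all other cells, but these include the apical cells, at 396 to 714. Cells with 0 markers measured 2.20 CPM of SPON1 and cells with 1 marker 14.5, over all matrices. Cells without the peroxidase must hold 2 of the other markers, most of which apical cells share, so that a higher level there of genes of apical cells can follow from the rule.

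Other genes were also lower in cells with the peroxidase. SFRP measured 238, 188 and 211 with and 470, 756 and 567 without the peroxidase, the forkhead gene STRG.21722 167, 116 and 129 with and 413, 286 and 269 without, and STRG.27038, a FoxQ2 gene on the study's list for neurosecretory cells 1, 25.7, 42.6 and 35.3 with and 261, 107 and 122 without. NKX3 measured 3.22, 8.18 and 4.88 with and 28.5, 22 and 41.5 without, from 1, 5 and 4 UMIs with and 6, 8 and 22 without. Each of these genes was lower with the peroxidase in every matrix, of which 2 are runs of 1 preparation. How many of all genes are so was not counted. The FoxQ2 gene STRG.21723 did not separate, at 264, 193 and 194 with and 247, 267 and 241 without. Higher with the peroxidase was an activin receptor 2B-like gene (STRG.37100), a receptor type of the TGF-beta family, at 86.9, 185 and 104 against 19, 22 and 28.3. This gene is on the neurosecretory list, and its level with the peroxidase did not exceed that of all other cells, at 106, 188 and 197 CPM. The epidermal markers STRG.11745 and STRG.38537 were 1.43 and 1.85 times and 1.42 and 1.60 times as high with it, and Sox3 was 0.70 and 0.93 times, in the unsorted and sorted samples.

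**Figure D4:**
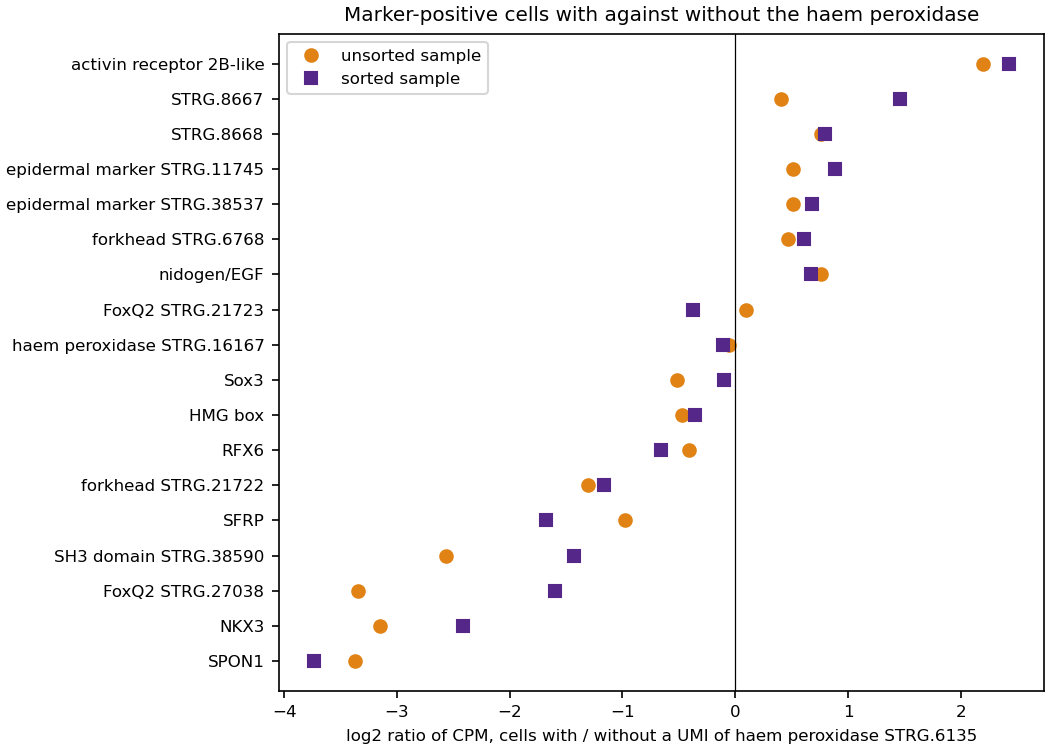
Log2 ratio of CPM between marker-positive cells with and without a UMI of the haem peroxidase STRG.6135, for 18 genes outside the rule in the unsorted (orange) and sorted (purple) sample, with 0 marking equal levels. SPON1, NKX3, STRG.27038, SFRP and STRG.21722 lie left of 0 in both samples, and the activin receptor 2B-like gene lies right of 0.

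Marker-positive cells lay near each other in expression, but not in a closed group. With the 15 nearest neighbours found in 26 principal components made without the 16 rule genes, 26.5% of the neighbours of a marker-positive cell were marker-positive (21.9%, 27.2% and 27.7% in the unsorted sample, run 1 and run 2). Their share among the neighbours of other cells was 4.52%, and they made up 6.87% of kept cells. Neighbours of apical cells were marker-positive in 31% and apical in 27.9% of cases. Apical cells were 3.35% of the neighbours of marker-positive cells and 0.26% of those of other cells. The median marker-positive cell had 3 marker-positive neighbours, and 14.5% had none. Cells with epidermal markers only were 26.9% of the neighbours of marker-positive cells and 25.6% of those of other cells. Cells were not brought to equal depth here, and the part of depth was not tested.

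In Pocillopora, cells with a DKK3 UMI and at most 1 of the 6 apical orthologs were compared with all other cells over the sums of each colony. They numbered 118 of 4809 kept cells in C3 (2.45%) and 55 of 4925 in C6 (1.12%), with median depths of 936 and 931 UMIs against 818 and 762. With colony as a block and DKK3 itself left out, 155 of 12135 genes were higher (1.28%) and 492 lower (4.05%) at an adjusted p under 0.05 by the quasi-likelihood test of edgeR with Benjamini-Hochberg adjustment, and 390 and 1188 at an unadjusted p under 0.05. Without the block 33 genes were higher and 88 lower, and with DESeq2 50 and 102. Both colonies gave the same direction for every gene named here with a passing test. Of the 4 markers with a named ortholog, LHFPL-like had 2 UMIs in each colony and did not pass (log2 difference 1.93, edgeR adjusted p = 0.638).

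The spondin-like ortholog rose with DKK3 in these cells, at 183.8 and 467 CPM against 36.9 and 78.2 in C3 and C6 (log2 difference 2.21, SE 0.285, edgeR adjusted p = 1.51e-12; adjusted p = 0.093 without the block). The ortholog of STRG.22094 measured 132 and 278 against 9.54 and 22.1 (3.47, SE 0.386, adjusted p = 6.14e-17). SFRP measured 1626 and 1971 against 128 and 222 (3.17, adjusted p = 1.15e-21), and this Wnt antagonist was thus higher in the chosen cells of both corals. The spondin-like and STRG.22094 orthologs and SFRP are on the study's list for apical cells, which was drawn from these same cells. Their p-values are therefore not independent evidence. The group differs from the Astroides one in its rule, which used DKK3 alone and no peroxidase.

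Regulators on the same list of the study were higher too, so their p-values are not independent evidence either. A FoxQ2 gene of group a2 had a log2 difference of 4.12 (edgeR adjusted p = 1.62e-27), the FoxQ2 gene of group a1 3.85 (adjusted p = 1.27e-12) and RFX6 1.54 (adjusted p = 1.69e-06). GDF11, a ligand of the TGF-beta family, differed by 2.75 (adjusted p = 3.04e-13) and NKX3 by 2.54 (adjusted p = 0.0112). NKX3 did not pass without the block (edgeR adjusted p = 0.09) or with DESeq2 (adjusted p = 0.23). In Astroides neither gene was higher in both samples by a like amount. GDF11 (STRG.41733) was 0.68 and 1.94 times and NKX3 1.00 and 1.80 times as high as in other cells, unsorted and sorted. The unsorted values rest on 5 and 7 UMIs. The 6 apical orthologs limited the choice and get no test. In the DKK3 cells of C3 and C6 they held 19 and 7 UMIs of ISX-like, 3 and 13 of POXA-like, 5 and 0 of FGF-like, 3 and 2 of FoxQ2a, 1 and 3 of TauDa and 1 and 0 of FGFa1. Of the 18 tested genes on the study's apical list outside these 6, a list that was drawn from these cells and is not independent evidence, 14 were higher and 0 lower, with a median log2 difference of 2.58 against -0.26 over all genes. Of the 94 tested genes of the Pocillopora aboral bulk list outside the 6, 35 were higher and 8 lower, with a median of 1.38.

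**Figure D5:**
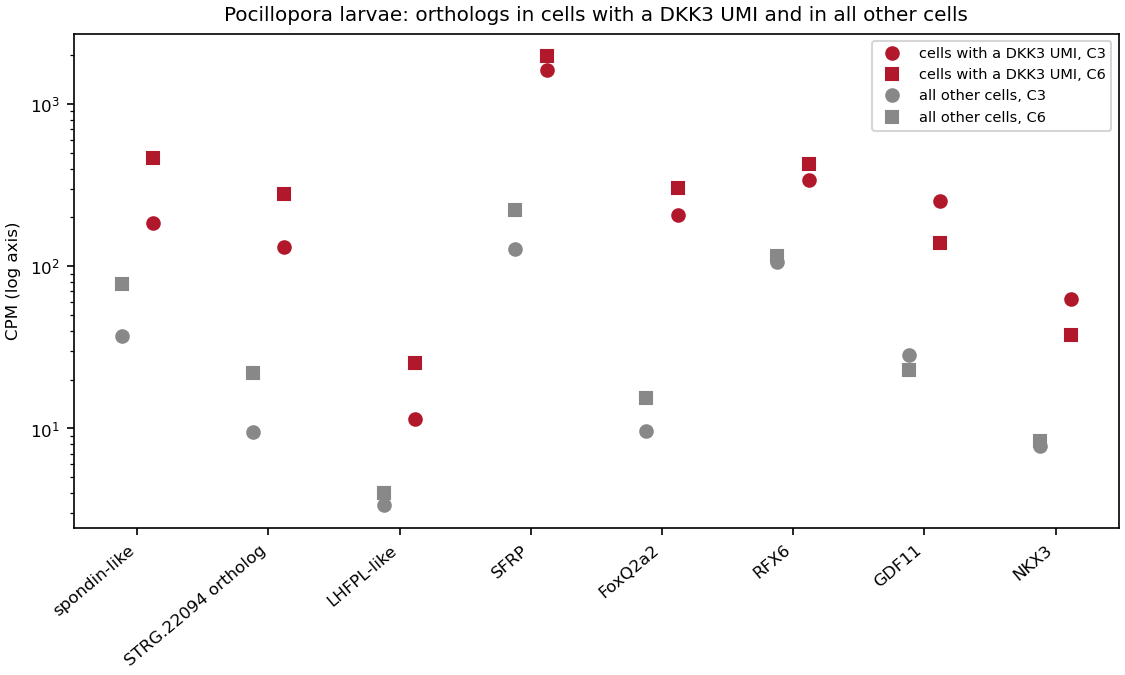
Level of 8 orthologs in Pocillopora cells with a DKK3 UMI (red) and in all other cells (grey), in CPM on a logarithmic axis, with circles for colony C3 and squares for colony C6. Each ortholog lies higher in the DKK3 cells of both colonies, and LHFPL-like, with 2 UMIs in each, did not pass the test.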

How the data were processed

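Single-cell 3′ libraries were mapped by the authors with STARsolo (version not given in the sources used here) to in-house gene models for Astroides and to the published genome of Pocillopora damicornis for Pocillopora, and UMI counts per cell were deposited, with values not normalised. Cells with 300 to 10000 UMIs, 200 to 3000 genes and at most 0.4% mitochondrial UMIs were kept (Pocillopora: up to 20000 UMIs, 4000 genes and 5%). Counts were summed per cell group and sample and scaled to 1000000, and the sorted runs were summed as 1 sample. Marker-positive cells were compared by folds of at least 4 in both samples, since the rule drew on these cells. Intervals are exact at 95%. Pocillopora sums were tested with edgeR 4.0.16 (DESeq2 1.42.0 as an alternative), two-sided, with colony as a block. C3 and C6 are 2 colonies of 1 genotype, each a separate dissociation. The block takes out the difference in level between them. The p-values then rest on how alike the difference between DKK3 cells and other cells is in both, with dispersion estimated across genes. Named genes were the rule genes, the 20 highest and 10 lowest ratios, 8 each way against apical cells, and members of fixed lists with 10 UMIs in both samples, and the activin receptor 2B-like gene, STRG.37100, was added after its values were seen. Listed genes needed at least 50 UMIs over all kept cells in each sample. The scripts ran in Python 3.11.15 and R 4.3.3 and were tested on simulated data. The members and lists were chosen with earlier results of these data known. No Astroides sequence was used here.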

Additional observations from a re-analysis of the deposited data

How the results depend on the processing

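The share of kept cells, 6.87%, was 2.02% with at least 3 markers, 5.52% with no apical gene, 3.55% without the spondin-like gene in the rule, 7.71% from 500 UMIs and 2.81% thinned to 500 UMIs. The 19 genes higher than in other cells became 11 with at least 3 markers, 7 with no apical gene, 42 with a floor of 1 UMI, 11 with each matrix as a unit, 109 at a fold of 2, 34 without cells holding 2 markers of another class and 48 against epidermal-marker cells. The 114 lower genes became 60 with at least 3 markers, 769 with a floor of 1 UMI, 301 at a fold of 2, 61 without cells of any other class, 199 without cells of a non-epidermal class and 2 against epidermal-marker cells. The 10 genes higher than in apical cells became 6 without the spondin-like gene and 27 with TMM scaling, and the 15 genes higher in apical cells became 88 with a floor of 1 UMI.

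Leaving out a sample or run gave 12 (without run 1) to 60 (without the unsorted sample) higher and 93 to 456 lower genes, 7 to 152 higher than apical, 15 to 96 the other way, and a median of the aboral list from -0.49 to -0.32. Without the unsorted sample a call rests on 1 sample. That median, -0.32 over both samples, was -0.49 with no apical gene and reversed to 0.70 with a floor of 1 UMI, which adds 115 genes, 46 of them at 0 UMIs in the marker-positive cells of a sample and set to 3 UMIs. The share of marker-positive neighbours, 26.5%, was 14.6% with at least 3 markers, where only such cells, 2.02% of kept cells against 6.87%, count as neighbours. Of all neighbours of these cells 34.6% were marker-positive. The 155 higher and 492 lower Pocillopora genes became 33 and 88 without the block, 258 and 605 with no apical limit and 50 and 102 with DESeq2. Without the block the spondin-like ortholog differed by 2.17 (edgeR adjusted p = 0.093). The cause of these changes was not tested.

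The log2 ratio to apical cells reversed to -0.28 for STRG.37611 with at least 3 markers, and for STRG.42770 to -1.48 with at least 3 markers, -0.63 without run 2 (3.04 without run 1) and -0.82 without cells of a non-epidermal class. The ratio of STRG.21512 to other cells came to -0.000466 with no apical gene. TMM moved every log2 ratio to other cells by -0.16 in the unsorted and 0.03 in the sorted sample, which changed the share of higher calls from 14.3% to 11.1%. Of the other values recomputed for single genes, 371 kept their call or moved by less than the spread between samples and 239 moved by more. In Astroides the folds were taken within each sample, so that marker-positive cells were paired with other cells of the same preparation. With 2 biological samples, of which 1 was sorted, no test between marker-positive and other cells was made, and genes under 10 UMIs in a sample could not be judged at this depth.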
